A study of Mus musculus with 6 samples.

Results

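The genes of the phagocyte NADPH oxidase and of superoxide handling were examined in M-MDSCs, the monocytic subset of myeloid-derived suppressor cells, with and without the kinase mTOR. The members were 8 genes chosen by name among the 34745 genes of the count table, and all 8 passed the filter on low counts. They were the oxidase subunit genes Cybb, Cyba, Ncf1, Ncf4 and Rac2, the superoxide dismutase genes Sod1 and Sod2, and the catalase gene Cat. RNAseq libraries came from bone marrow M-MDSCs of C57BL/6 mice, 3 from WT mice and 3 from Lyz-mTOR mice (mTOR-/-), in which Lyz-Cre, a Cre recombinase active in myeloid cells, deletes a floxed mTOR gene. Cells that do not express Lyz-Cre keep mTOR in these mice, and the labels give no age, sex or batch. In discussing its RNAseq, the study calls the M-MDSCs from Lyz-mTOR mice induced. Its methods describe induction of such cells from marrow with GM-CSF and IL-6 and sorting on CD11b, Ly6C and Ly6G. Those methods give an n for the mice of each genotype that equals the number of libraries, and neither they nor the labels tie a library to a single mouse. The p-values measure the spread between libraries.

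The phagocyte oxidase is an enzyme that passes electrons from NADPH across a membrane to oxygen and so makes superoxide. Its membrane part is a pair of chains, the catalytic chain encoded by Cybb and its partner encoded by Cyba, each of which needs the other to be stable. Ncf1 and Ncf4 encode cytosolic subunits that join the membrane part on activation, together with the GTPase encoded by Rac2. Superoxide dismutases turn superoxide into hydrogen peroxide, Sod1 in the cytosol and Sod2 in mitochondria, and catalase breaks hydrogen peroxide down to water and oxygen. Reactive oxygen species made by this oxidase are among the means by which MDSCs are known to act on T cells.

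The promoters of Cybb and Cyba are shown because these genes encode the partner chains of the membrane part and their values lay on opposite sides between the groups. Both are the 250 bases before the RefSeq start site, read 5′ to 3′ along the gene from GRCm38.p6 (reverse strand), at chrX:9469325-9469574 for Cybb and chr8:122432941-122433190 for Cyba. The Cybb stretch lies inside the counted gene, which spans 9435252 to 9487771, and not before it. Capitals mark a loose NF-kB motif (GGG, 5 free bases and CC) on either strand, with overlapping matches joined. Only matches that lie wholly within a stretch are marked, and a Cyba match that runs past the start site is in lower case.
Cybb: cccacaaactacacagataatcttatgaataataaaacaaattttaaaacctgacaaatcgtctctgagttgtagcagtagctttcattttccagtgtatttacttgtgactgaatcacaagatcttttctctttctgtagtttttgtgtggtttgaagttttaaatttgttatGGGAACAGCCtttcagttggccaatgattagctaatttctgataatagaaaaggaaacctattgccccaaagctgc
Cyba: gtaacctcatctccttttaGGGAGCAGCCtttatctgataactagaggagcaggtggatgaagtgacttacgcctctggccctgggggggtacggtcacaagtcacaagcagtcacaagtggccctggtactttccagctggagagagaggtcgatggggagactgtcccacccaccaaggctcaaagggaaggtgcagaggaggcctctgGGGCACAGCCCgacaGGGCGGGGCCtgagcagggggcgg
The Cybb stretch was poor in G and C, at 34.0%, and the Cyba stretch was at 60.0%, where the median over all RefSeq windows was 52.4%. RefSeq windows of 300 bases, which reach 50 bases past the start, were at hand for 6 of the 8 members. The NF-kB motif was in 6 of these 6 windows and in 50.8% of all 32851 windows. The ETS factor letters GAGGAA were in 3 of the 6, those of Cybb, Sod2 and Cat, and in 28.3% of all windows. The antioxidant response letters TGACNNNGC were in 1 of the 6, that of Sod1, against 12.4% of all windows. The FOXO letters GTAAACA were in 0 of the 6 and in 3.65% of all windows. All motifs were searched on both strands, and a match describes letters only.

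Total counts were 12317507 to 12903191 reads on genes in mTOR-/- M-MDSCs and 14066578 to 14768126 in WT M-MDSCs. Correlations of log2 CPM across the 12537 tested genes were 0.978 to 0.981 between WT libraries, and mTOR-/- replicate 3 stood apart at 0.955 and 0.952 with its group. Mtor counts did not separate the groups (log2 fold change 0.15, SE 0.11, adjusted p = 0.442, edgeR's quasi-likelihood test), so on Mtor alone directions rest on the labels. The study reports that it verified the loss of mTOR in MDSCs. Lyz2, a lysozyme gene also taken as a check of the labels, was lower in mTOR-/- M-MDSCs (log2 fold change -1.68, SE 0.20, adjusted p = 0.00255, same edgeR test). It was at 903 to 1196 CPM in mTOR-/- and 2327 to 3910 CPM in WT. The study genotyped its Lyz-Cre mice with primers for wild-type and mutant Lyz alleles. The part of the Lyz-Cre allele in the lower Lyz2 level was not tested. Of the defining markers, Itgam (ENSMUSG00000030786), which encodes CD11b, was at 647 to 1028 CPM over the 6 libraries. Ly6c2 was at 72.6 to 104 CPM in mTOR-/- and 116 to 226 CPM in WT, and Ly6g was at 10.7 to 15.1 CPM in mTOR-/- and 0.853 to 5.06 CPM in WT.

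Cybb and Ncf4 rose in mTOR-/- M-MDSCs, by 1.47-fold and 1.37-fold, and the other 6 members did not pass the test. Values below are CPM, counts scaled to the size of the library, after TMM normalisation, and fold changes are mTOR-/- over WT from edgeR's quasi-likelihood test with Benjamini-Hochberg adjustment over all tested genes. The call was an adjusted p under 0.05, and 2 of the 8 members passed it against 4.04% of all tested genes. Both were called in the direction of mTOR-/-, where 2.18% of the tested genes were called, and 0 of the 8 were called lower, where 1.87% were. With the study's added requirement of a 2-fold change, edgeR and DESeq2 called 0 of the 8 members, and they called 1.69% and 2.85% of the tested genes. At an unadjusted p under 0.05 edgeR counted 5 of the 8 members and 21.2% of the tested genes. The groups did not overlap for 5 members, 3 higher (Cybb, Ncf1 and Ncf4) and 2 lower (Cyba and Sod1), and they did not overlap for 28.4% of the tested genes. The median log2 fold change was 0.08 over the 8 members and 0.0049 over all tested genes. In bulk RNA, a change in the share of cells that express a gene and a change in its RNA per cell cannot be told apart.

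**Figure D1:**
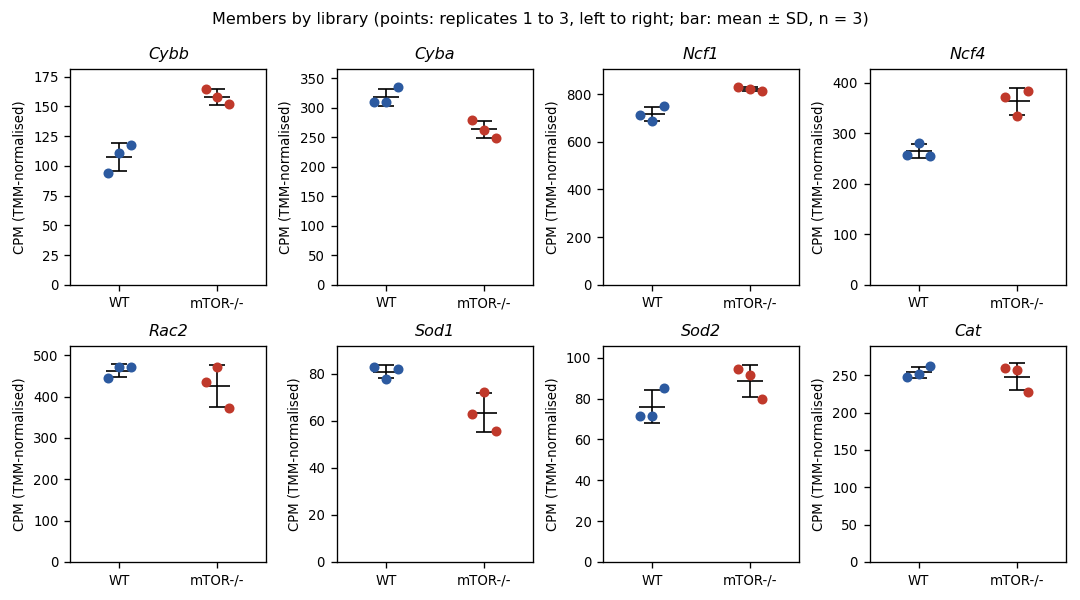
TMM-normalised CPM (vertical axes, from 0) of the 8 members in the 3 WT (blue) and 3 mTOR-/- (red) libraries, with the mean and SD. The red points lie above the blue ones for Cybb, Ncf1 and Ncf4 and below them for Cyba and Sod1, and the groups overlap for Rac2, Sod2 and Cat.

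Cybb (ENSMUSG00000015340, chromosome X, 9435252 to 9487771 on mm10, reverse strand) encodes the catalytic chain, which carries the haem groups and the NADPH binding site. Cybb was at 165, 158 and 152 CPM in mTOR-/- replicates 1, 2 and 3 and at 94.3, 111 and 118 CPM in WT replicates 1, 2 and 3. Every mTOR-/- library lay above every WT library, and the spread was wider among the WT libraries. The means were 158 ± 6.51 CPM (SD, n = 3) and 108 ± 11.9 CPM (SD, n = 3). The log2 fold change was 0.56 (SE 0.11, adjusted p = 0.0220, edgeR, 95% interval 0.32 to 0.79). The call was lost without mTOR-/- replicate 1 (adjusted p = 0.0767, edgeR) and without WT replicate 1, 2 or 3 (adjusted p = 0.101, 0.0759 and 0.0554, edgeR). The log2 fold change stayed between 0.46 and 0.62 with any library left out.

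Cyba (ENSMUSG00000006519, chromosome 8, 122424772 to 122432940, reverse strand), whose product holds the catalytic chain in the membrane and docks the cytosolic subunits, was at 278, 261 and 249 CPM in mTOR-/- M-MDSCs. In the WT libraries it was at 310, 309 and 334 CPM. All WT values were above all mTOR-/- values, but Cyba did not pass the test (log2 fold change -0.27, SE 0.09, adjusted p = 0.123, edgeR, 95% interval -0.47 to -0.08). The annotated gene Gm20388 covers the Cyba locus on the opposite strand and had 0 counts in each library.

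Ncf1 (ENSMUSG00000015950, chromosome 5, 134220053 to 134229625, reverse strand) encodes the organiser subunit, which is phosphorylated on activation and bridges the cytosolic and membrane parts. It was at 832, 821 and 813 CPM in mTOR-/- M-MDSCs and at 711, 690 and 749 CPM in WT M-MDSCs. The groups did not overlap, with a log2 fold change of 0.20 (SE 0.09, adjusted p = 0.230, edgeR, 95% interval 0.003 to 0.39). The end of Ncf1 overlaps Gtf2ird2 on the opposite strand, which had 78 to 145 counts, while Ncf1 had 10001 to 10640 counts.

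Ncf4 (ENSMUSG00000071715, chromosome 15, 78244801 to 78262580, forward strand) encodes the subunit that binds a membrane lipid of phagosomes, phosphatidylinositol 3-phosphate. Ncf4 was at 373, 334 and 383 CPM in mTOR-/- M-MDSCs and at 258, 281 and 256 CPM in WT M-MDSCs. The lowest mTOR-/- library was above the highest WT library. The means were 363 ± 26.1 CPM (SD, n = 3) and 265 ± 14.1 CPM (SD, n = 3), with a log2 fold change of 0.45 (SE 0.09, adjusted p = 0.0298, edgeR, 95% interval 0.25 to 0.66). The call was lost without mTOR-/- replicate 1 (adjusted p = 0.0858, edgeR) and without WT replicate 1, 2 or 3 (adjusted p = 0.138, 0.0753 and 0.162, edgeR). The log2 fold change lay between 0.41 and 0.50 with any library left out.

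Rac2 (ENSMUSG00000033220, chromosome 15, 78559169 to 78572783, reverse strand), the GTPase that switches the assembled oxidase on in leukocytes, was at 436, 470 and 372 CPM in mTOR-/- M-MDSCs. It was at 444, 472 and 471 CPM in WT M-MDSCs. The groups overlapped, and mTOR-/- replicate 3 held the lowest value. The log2 fold change was -0.12 (SE 0.10, adjusted p = 0.548, edgeR, 95% interval -0.35 to 0.12).

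The superoxide dismutases had fold changes of opposite sign, and neither passed the test. Sod1 (ENSMUSG00000022982, chromosome 16, 90220742 to 90226322, forward strand), the cytosolic enzyme of copper and zinc, was at 62.8, 72.3 and 55.6 CPM in mTOR-/- M-MDSCs and at 82.7, 77.9 and 82.3 CPM in WT M-MDSCs. The WT values were all higher and closer together. The log2 fold change of Sod1 was -0.35 (SE 0.12, adjusted p = 0.138, edgeR, 95% interval -0.62 to -0.08). Sod2 (ENSMUSG00000006818, chromosome 17, 13007839 to 13018119, forward strand), the mitochondrial manganese enzyme, was at 94.5, 91.8 and 79.9 CPM in mTOR-/- M-MDSCs and at 71.4, 71.4 and 85.4 CPM in WT M-MDSCs. WT replicate 3 was above mTOR-/- replicate 3, so the groups overlapped (log2 fold change 0.22, SE 0.12, adjusted p = 0.311, edgeR, 95% interval -0.04 to 0.49).

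Cat (ENSMUSG00000027187, chromosome 2, 103453849 to 103485160, reverse strand) was the member with the smallest difference. It was at 260, 257 and 228 CPM in mTOR-/- M-MDSCs and at 248, 252 and 262 CPM in WT M-MDSCs. Only mTOR-/- replicate 3 lay outside the range from 248 to 262 CPM. The log2 fold change of Cat was -0.03 (SE 0.09, adjusted p = 0.861, edgeR), with a 95% interval from -0.23 to 0.17. Without mTOR-/- replicate 3 it was 0.018 (adjusted p = 0.921, edgeR).

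**Figure D2:**
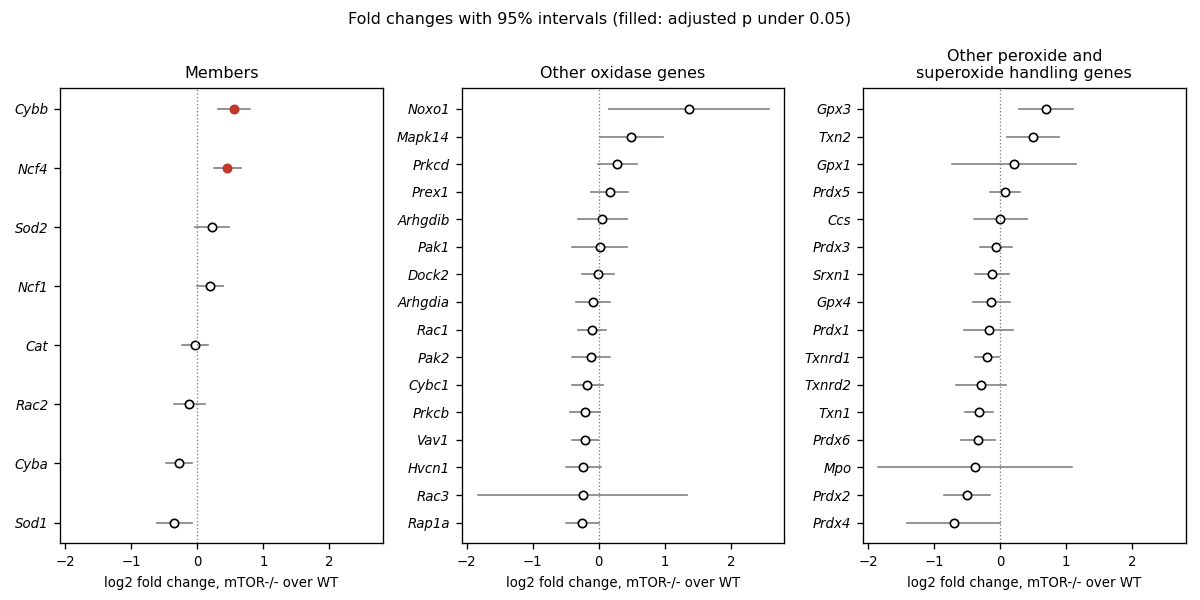
Log2 fold change of mTOR-/- over WT (horizontal axis) with its 95% interval for the 8 members, 16 tested other oxidase genes and 16 tested other genes of peroxide and superoxide handling. Filled points passed an adjusted p of 0.05, and these are Cybb and Ncf4.

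The subunits were next set against each other within each library, where the scaling between libraries has no part. The ratios use the deposited FPKM, which are counts scaled to gene length and to the reads counted in the library. All 10 pairs of the 5 subunit genes were formed, and the groups did not overlap for 7 of them. The pairs reuse Cybb, Ncf1, Ncf4 and Cyba, which each did not overlap in CPM, so the 7 are not separate findings. The share over all pairs of genes was not computed, and single genes did not overlap for 28.4% of those tested. The ratio of Cyba to Cybb, the partner chains, was 14.0, 13.7 and 13.6 in mTOR-/- M-MDSCs and 27.3, 23.1 and 23.6 in WT M-MDSCs. Its mean was 13.8 ± 0.214 (SD, n = 3) in mTOR-/- and 24.7 ± 2.27 (SD, n = 3) in WT, 1.79 times as high. The groups did not overlap on this ratio, and the mTOR-/- libraries were close to each other. The ratio of Rac2 to Cybb was 5.57 ± 0.551 (SD, n = 3) in mTOR-/- and 8.96 ± 0.736 (SD, n = 3) in WT, and that of Ncf1 to Cybb was 4.86 ± 0.142 (SD, n = 3) and 6.27 ± 0.671 (SD, n = 3). The groups did not overlap for either of these. The ratio of Ncf4 to Cybb did overlap, at 4.56, 4.25 and 5.09 in mTOR-/- and 5.51, 5.11 and 4.38 in WT. Cyba to Rac2 also overlapped, at 2.49 ± 0.238 (SD, n = 3) and 2.75 ± 0.117 (SD, n = 3), as did Ncf1 to Ncf4, at 1.05 ± 0.0805 and 1.26 ± 0.112 (SD, n = 3). The separation was not particular to the pair of membrane chains. Over Ncf4, the other called member, the ratio of Cyba was 2.99 ± 0.284 (SD, n = 3) in mTOR-/- and 4.95 ± 0.431 (SD, n = 3) in WT, 1.65 times as high, and that of Rac2 was 1.48 times as high in WT. Over Ncf1, Cyba and Rac2 were 1.39 and 1.25 times as high in WT, and the groups did not overlap for any of these 4 ratios. These ratios were formed after the values of the genes had been seen and carry no test.

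**Figure D3:**
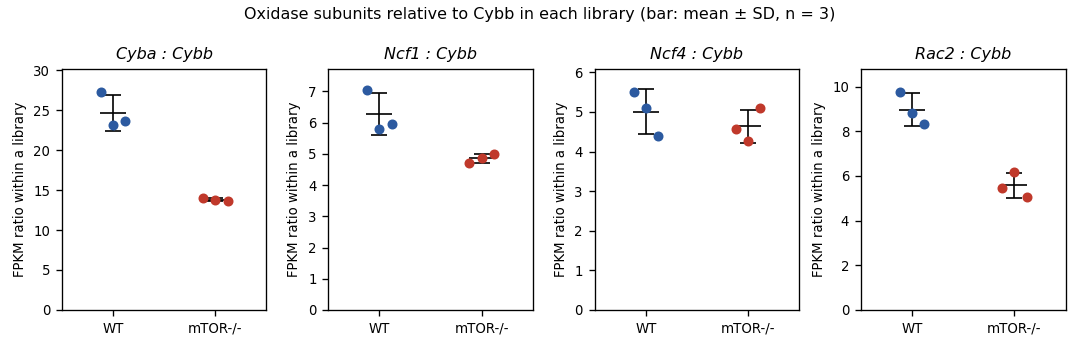
FPKM of Cyba, Ncf1, Ncf4 and Rac2 divided by that of Cybb (vertical axes, from 0) within each library, with the mean and SD of 3 libraries. The Cyba ratio lies at 13.6 to 14.0 in mTOR-/- (red) and 23.1 to 27.3 in WT (blue), while the Ncf4 ratio overlaps.

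Levels were compared between genes per length. In the deposited FPKM of the WT libraries the order was Cyba at 416 ± 16.5 FPKM (SD, n = 3), Rac2 at 151 ± 4.16 FPKM, Sod1 at 124 ± 4.41 FPKM, Ncf1 at 106 ± 4.06 FPKM, Ncf4 at 84.2 ± 4.49 FPKM, Cat at 80.4 ± 1.70 FPKM, Sod2 at 19.7 ± 1.97 FPKM and Cybb at 17.0 ± 1.76 FPKM. The libraries of Ncf4 and Cat overlapped in WT, and the means of Sod2 and Cybb were not apart by more than the sum of their SDs. In the mTOR-/- libraries Cyba again came out on top, at 349 ± 16.6 FPKM (SD, n = 3), and Cybb and Sod2, at 25.3 ± 0.827 and 23.3 ± 1.89 FPKM (SD, n = 3), overlapped at the bottom. Ncf1 was at 123 ± 0.478 FPKM (SD, n = 3), Ncf4 at 117 ± 8.42 FPKM (SD, n = 3) and Sod1 at 87.2, 96.8 and 113 FPKM there, and Ncf4 overlapped both of the others. These levels depend on the gene length used: the deposited values imply 6736 bases for Ncf1, 3123 for Ncf4 and 758 for Cyba, where the principal transcripts of GENCODE M21 have 2721, 1464 and 744 bases. On the same scale with the length of the principal transcript, Ncf1 came next after Cyba, at 261 ± 10.1 (SD, n = 3) in WT and 304 ± 1.18 (SD, n = 3) in mTOR-/-, and Ncf4 followed at 180 ± 9.57 and 250 ± 18.0. Cybb and Sod2 were the lowest of the 8 in both groups with either length.

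**Figure D4:**
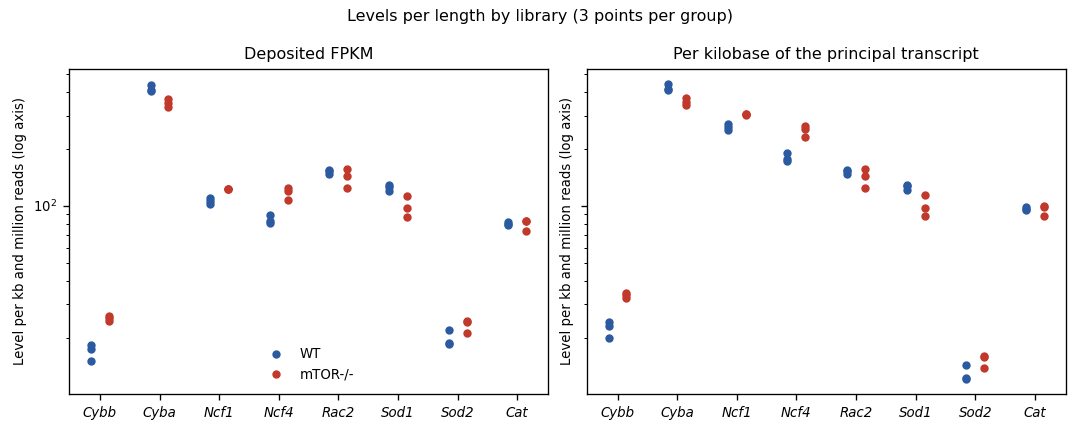
Levels of the 8 members by library on log axes, as deposited FPKM (left) and with the length of the principal transcript (right). Cyba is highest and Cybb and Sod2 lowest on both sides, while Ncf1 and Ncf4 move up on the right.

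The remaining oxidase genes were a list of 22 subunits, homologs and activators, of which 16 were tested. In edgeR's test, 0 of the 16 passed the adjusted threshold and 3 had an unadjusted p under 0.05, against 4.04% and 21.2% of all tested genes. DESeq2 and limma-voom also called 0, against 9.12% and 5.09% of all tested genes. The groups did not overlap for 1 gene higher and 4 lower in mTOR-/-, of 16, where 14.5% and 13.9% of all tested genes did so. The median log2 fold change of the list was -0.09. Cybc1, whose product is a chaperone for the membrane chains and which was matched by its identifier, was at 55.0 to 61.1 CPM in mTOR-/- and 61.6 to 68.3 CPM in WT (log2 fold change -0.17, adjusted p = 0.388, edgeR). Rac1, the widely expressed paralog of Rac2, had a log2 fold change of -0.10 (SE 0.09, adjusted p = 0.557, edgeR). Mapk14, a kinase that phosphorylates the organiser subunit, was at 64.3, 125 and 114 CPM in mTOR-/- and at 77.1, 71.0 and 66.9 CPM in WT (log2 fold change 0.49, adjusted p = 0.223, edgeR). Without mTOR-/- replicate 1, its low library, Mapk14 passed the test (log2 fold change 0.73, adjusted p = 0.0241, edgeR). Of all tested genes, 2.24% were called in that fit. Leaving out the lowest mTOR-/- value of a gene raises its fold change by construction.

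The catalytic homologs of Cybb were at or near 0. Nox1, Nox4, Duox1 and Duox2, and the activator Noxa1, had 0 counts in each library, and Nox3 had 1 count in 1 library. A floor of 3 counts was 0.203 to 0.244 CPM, so levels up to that range could have gone undetected for the genes with 0 counts. Noxo1, an organiser of the homologous Nox1 oxidase, had 16 to 30 counts in mTOR-/- and 8 to 14 counts in WT and did not pass the test (log2 fold change 1.37, SE 0.54, adjusted p = 0.191, edgeR). Floors cover counting error only.

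Among 19 other genes of peroxide and superoxide handling, 16 were tested and edgeR called 0, with 7 at an unadjusted p under 0.05. At that unadjusted p edgeR counted 21.2% of all tested genes, and it called 4.04% at the adjusted threshold. Limma-voom also called 0, against 5.09% of all tested genes, and DESeq2 called 3 (Gpx3, Prdx2 and Txn1), against 9.12%. The median log2 fold change of the list was -0.16. The groups did not overlap for 2 genes higher and 4 lower in mTOR-/-, of 16, where 14.5% and 13.9% of all tested genes did so. The peroxiredoxins reduce hydrogen peroxide, most of them with the help of thioredoxin, and 5 of 6 had a log2 fold change below 0. None of the 6 was called by edgeR, and the median log2 fold change of all tested genes was 0.0049. Prdx2, a cytosolic peroxiredoxin, was at 49.6, 49.5 and 37.4 CPM in mTOR-/- and at 53.9, 69.2 and 70.8 CPM in WT (log2 fold change -0.51, SE 0.16, adjusted p = 0.107, edgeR; adjusted p = 0.0426, DESeq2). Txn1, cytosolic thioredoxin, was at 186 to 202 CPM in mTOR-/- and 223 to 264 CPM in WT, without overlap (log2 fold change -0.32, SE 0.09, adjusted p = 0.0931, edgeR; adjusted p = 0.0398, DESeq2). Txn2, another thioredoxin gene, had the opposite sign (log2 fold change 0.50, SE 0.18, adjusted p = 0.147, edgeR). It was at 48.7 to 80.2 CPM in mTOR-/- and 43.1 to 44.0 CPM in WT, also without overlap. Gpx3, the secreted glutathione peroxidase, was at 16.7, 23.4 and 20.0 CPM in mTOR-/- and at 13.2, 11.1 and 12.8 CPM in WT (log2 fold change 0.70, SE 0.18, adjusted p = 0.0665, edgeR; adjusted p = 0.0211, DESeq2). The log2 fold changes of Prdx1, Prdx3, Prdx4, Prdx5 and Prdx6 were -0.17, -0.06, -0.71, 0.07 and -0.34 (adjusted p 0.137 to 0.792, edgeR). Prdx4 was at 4.13 to 8.15 CPM in mTOR-/- and 7.04 to 11.9 CPM in WT. Gpx4, which reduces lipid peroxides, had a log2 fold change of -0.14 (SE 0.12, adjusted p = 0.564, edgeR). Gpx1, the main cytosolic glutathione peroxidase, varied widely within both groups, at 314, 113 and 280 CPM in mTOR-/- and 136, 338 and 139 CPM in WT. Ccs, the copper chaperone of Sod1, had a log2 fold change of 0.002 (SE 0.18, adjusted p = 0.996, edgeR). The extracellular dismutase gene Sod3 had 0 to 5 counts and Gpx7 0 to 14 counts, and Gpx8 had 0 counts in each library.

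Genes with the most similar pattern were sought for the 3 members with the largest absolute log2 fold changes, Cybb, Ncf4 and Sod1. Likeness was the root mean square difference of centred log2 CPM over the 6 libraries. This measure takes in the difference between the groups, so it is not separate from the fold changes above. The nearest genes to Cybb were Clec5a, Nckipsd and Mmp19, at 0.039, 0.056 and 0.066, and those to Ncf4 were Tmem170b, Gm17066 and Sidt2, at 0.032, 0.039 and 0.040. Those to Sod1 were Tuba1b and Gnas, at 0.028 and 0.029. Among the members themselves the closest pair was Rac2 and Cat, at 0.070, and the most distant was Cybb and Sod1, at 0.48, with Cybb and Cyba at 0.42.

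Other myeloid cells also express this oxidase, so marker lists of other cell types are given beside the results. Of all tested genes, edgeR called 2.18% higher and 1.87% lower in mTOR-/-. The summed level of 8 mast cell and basophil markers was 441 to 516 CPM in mTOR-/- and 1282 to 1366 CPM in WT, and 4 of the 7 tested were called lower. Of that list, Cpa3 was at 111 to 154 CPM and 632 to 769 CPM, and Tpsab1 had 0 counts. The sum of 8 dendritic cell markers was 351 to 440 CPM in mTOR-/- and 106 to 214 CPM in WT, with 2 of the 5 tested called higher, Ccr7 and H2-Ab1, and with Siglech at 0 counts. The sum of 12 neutrophil markers was 2586 to 2909 CPM and 2274 to 2594 CPM, with 3 called higher (Ly6g, S100a8 and Csf3r) and 2 called lower (Ltf and Ngp). The largest part of the neutrophil sum was Mmp8, at 1395 to 1798 CPM in mTOR-/- and 1078 to 1321 CPM in WT. The neutrophil list holds Mpo, which is also in the peroxide list. The sum of 8 monocyte markers, in which Itgam enters with both of its overlapping gene records in the table, was 1608 to 1751 CPM in mTOR-/- and 1634 to 1831 CPM in WT, with Csf1r and F13a1 called higher and Ly6c2 lower. The sum of 8 macrophage markers was 557 to 695 CPM and 668 to 759 CPM, with Axl called higher. Most of this sum was Adgre1, at 402 to 533 CPM in mTOR-/- and 564 to 643 CPM in WT. Of the 6 tested macrophage markers, 4 had a log2 fold change above 0 and 2 below. The 4 eosinophil markers summed to 41.5 to 64.5 CPM and 94.2 to 112 CPM, with Prg2 called lower. The 6 lymphocyte markers summed to at most 5.58 CPM and the 5 erythroid markers to at most 6.12 CPM, and none of either list was called, with Cd3e at 0 counts. The part of these cell types in the values of Cybb, Ncf4 and the other members was not tested.

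**Figure D5:**
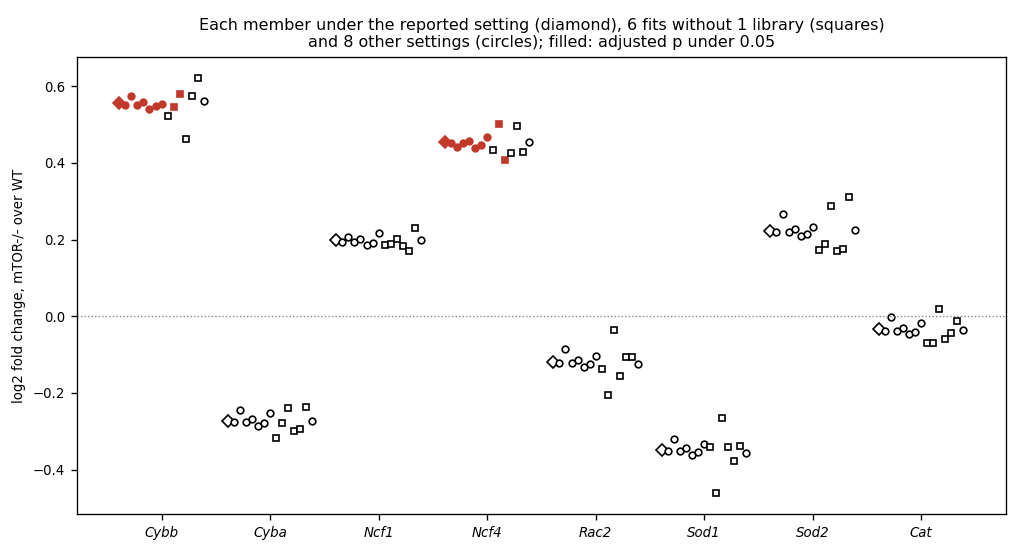
Log2 fold change of each member (vertical axis) under the reported setting (diamonds), with 1 library left out (squares) and under 8 other settings (circles), filled where the adjusted p was under 0.05. Cybb and Ncf4 keep their sign throughout but lose the call in 4 of the 6 squares and in the circle of the replicate block.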

How the data were processed

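RNAseq of 6 M-MDSC libraries, 3 WT and 3 mTOR-/-, was analysed from the authors' table of 34745 genes. The deposited counts are whole numbers of reads per gene without normalization, and the deposited FPKM values are these counts scaled to gene length and to the total of the library. The paper's methods name Bowtie2, mm10 and HTSeq, while the submitters' processing notes name HISAT2 2.0.4 and StringTie 1.3.0 with the builds GRCm38.p4 and mm9, and which of them made the table is not given in the sources used here. Of the genes, 98.6% were found in GENCODE M21 (GRCm38), of which 80.8% had identical coordinates. The named library kit does not mark strand, and the treatment of reads shared by paralogs such as Rac1 and Rac2 is not given in the sources used here. The files hold 24 further columns with count or FPKM headers that were not used, and the authors' own comparison (fold changes, p-values and q-values) was not used.

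Counts were tested with edgeR 4.0.16 in R 4.3.3 (filterByExpr with a minimum count of 10 and minimum total of 15, TMM, quasi-likelihood F test, Benjamini-Hochberg over 12537 genes), without a block. The biological coefficient of variation was 19.0%. TMM factors lay between 0.986 and 1.01. SEs and 95% intervals come from the same fit. Alternatives used DESeq2 1.42.0, limma 3.58.1 (voom with sample weights, and limma-trend on log2(FPKM + 1)), other normalizations and filters, each library left out, and the replicate number as a block. The script was tested on simulated data. Libraries of a group differed by more than counting noise (chi-square per degree of freedom 13.0 or more for each pair). The members and lists were chosen with earlier results of these data known. Named genes were the members, the listed genes past the adjusted threshold or named in the rule (Rac1, Cybc1, the Prdx and Gpx genes and those not detected), and for the 3 members with the largest changes the 3 nearest genes with a mean of at least 50 counts. Of these, 1 listed gene and 1 nearest gene are not reported here, and the list's counts leave it out. Mapk14, Noxo1, Txn1, Txn2, Ccs, Adgre1 and Mmp8 were named after their values were seen.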

Additional observations from a re-analysis of the deposited data

How the results depend on the processing

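Cybb and Ncf4 kept their direction under all 14 alternatives and were called in 9 each. With the replicate number as a block, Cybb had a log2 fold change of 0.56 (adjusted p = 0.0655, edgeR), Ncf4 of 0.45 (adjusted p = 0.113, edgeR), and 0 members and 279 genes were called. Same-numbered libraries deviated from their group means with correlations of -0.076, -0.025 and -0.061, so that the numbers were not taken as a pairing. With 1 library left out, the log2 fold changes of Cybb and Ncf4 lay between 0.46 and 0.62 and between 0.41 and 0.50 (adjusted p 0.0257 to 0.101 and 0.0294 to 0.162, edgeR), and the members called numbered 0 to 2. In these fits the genes called over the whole table numbered 173 to 513, against 507 with all libraries, and those with at least 2-fold 114 to 229, against 212. Fewer libraries were tested there by construction. Over all 14 alternatives the adjusted p of Cyba was 0.0673 to 0.396, of Ncf1 0.144 to 0.467, of Rac2 0.271 to 0.853, of Sod1 0.0623 to 0.365 and of Sod2 0.196 to 0.595, and none changed sign. Cat changed sign once, to 0.018 without mTOR-/- replicate 3, and lay between -0.071 and 0.018 with 1 library left out. DESeq2 called 1144 genes, 357 of them at least 2-fold, and limma-trend on FPKM called 129 at least 2-fold. The other oxidase genes called numbered 0 to 1 with 1 library left out (Mapk14), and DESeq2 called 3 other peroxide genes. The cause of these shifts was not tested. RLE and upper-quartile normalization changed no call or sign of a member, and the median of all genes moved by less than 0.1 (log2) under each setting. The length of the principal transcript, chosen after seeing the data, moved the levels of 5 members in each group by more than 1 SD.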
